A study of Homo sapiens with 4 samples.

Results

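The chaperone genes described here are known targets of the heat shock factor HSF1: HSPA8, HSPA1A, HSPA1B, HSPH1, DNAJB1, BAG3, HSP90AA1, HSPD1, HSPE1 and HSPB1. They were chosen by name, without a rule on their measured values, though earlier results of these data were known. They are 10 of the 25027 symbols or unmatched identifiers in the deposited tables. The study measured RNA in RPE1, a telomerase-immortalised line of human retinal pigment epithelium, after depletion of SAF-A, an abundant nuclear protein encoded by HNRNPU that binds RNA and chromatin. The 4 groups were control siRNA at 24 h, SAF-A siRNA at 24 h, control siRNA at 48 h and SAF-A siRNA at 48 h, each with 1 library of RNA depleted of ribosomal RNA. All groups received 10 nM of a Stealth siRNA with the same lipid reagent, the control groups a commercial negative control and the others 1 sequence against SAF-A, so effects of that sequence on other transcripts cannot be told apart from loss of SAF-A. With 1 library per group no difference has a replicate check and no p-value is given.

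HSF1 is a transcription factor that is held inactive by chaperones in unstressed cells. When unfolded proteins occupy those chaperones, HSF1 trimerises, enters promoters at heat shock elements and raises transcription of the chaperones themselves. The products work as a chain: small heat shock proteins hold unfolding proteins, HSP40 proteins deliver them to HSP70, HSP110 and BAG proteins make HSP70 release them, HSP90 acts late on kinases and receptors, and the HSP60 chamber folds proteins inside mitochondria.

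The heat shock element is built from GAA units in alternating orientation. Promoter windows of 300 bases around the RefSeq start sites (table of build GRCh38.p14, each placed on GRCh37 by its single exact match) were searched on both strands for 2 units, GAANNTTC or TTCNNGAA, and for 3 units. The 3-unit form is GAA, TTC and GAA, each parted by any 2 bases, or its reverse complement TTC, GAA and TTC, and it always contains the 2-unit form. Of 35116 promoter windows, 172 (0.49%) held a 3-unit match and 4737 (13.5%) a 2-unit match. The stretches below show the matches of those members that held any, because HSF1 enters promoters at this element. A further 2-unit match in HSP90AA1 and 1 at another RefSeq start of DNAJB1 are left out. Capitals mark the matched units, and each stretch reads 5′ to 3′ on the strand of the gene.

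HSPA8 outer: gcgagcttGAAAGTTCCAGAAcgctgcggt
HSPA8 inner: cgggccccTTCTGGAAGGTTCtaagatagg
HSP90AA1: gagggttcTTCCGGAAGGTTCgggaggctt
HSPD1: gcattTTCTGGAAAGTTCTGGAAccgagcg
HSPA1A: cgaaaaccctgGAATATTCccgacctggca
HSPA1B: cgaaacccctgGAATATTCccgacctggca
DNAJB1 outer: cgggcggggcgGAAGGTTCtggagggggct
DNAJB1 inner: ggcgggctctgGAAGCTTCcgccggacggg
HSPB1: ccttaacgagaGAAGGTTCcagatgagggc
HSPH1: gggtagaatctTTCCAGAAggctcgagaag

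HSPA8, HSP90AA1 and HSPD1 held matches of 3 or more units. Those of HSPA8 lie at chr11:122933053-122933082 and chr11:122932878-122932907 on the minus strand, the inner one inside the first exon of the deposited transcripts. That of HSP90AA1 lies at chr14:102553448-102553477 on the minus strand, inside the deposited first exon of NM_005348 and thus downstream of its deposited start, and begins 88 bases before the RefSeq start. The HSPD1 match lies at chr2:198364785-198364814 on the minus strand, within the deposited first exon of HSPE1, which starts in the opposite direction from the same stretch of chromosome 2. HSPA1A (chr6:31783203-31783232) and HSPA1B (chr6:31795399-31795428), both on the plus strand, held the same 2-unit match 106 and 105 bases before their RefSeq starts. DNAJB1 (chr19:14629268-14629297 and chr19:14629238-14629267, minus strand) and HSPB1 (chr7:75931797-75931826, plus strand) also held 2-unit matches. The HSPH1 match at chr13:31736162-31736191 on the minus strand lies outside the RefSeq window and was read from GRCh37 at the deposited start of its main transcript NM_006644. Windows of the same length at all deposited starts were searched too, where 0.472% of 29871 starts held a 3-unit and 12.4% a 2-unit match. There HSPA8 kept its outer match and HSPD1 held 3-unit matches at NM_002156 but none at NM_199440, the accession with most of its FPKM. HSP90AA1 held no match at either deposited start, and DNAJB1, HSPA1A, HSPA1B and HSPB1 held 2-unit matches as before. No match was found in either kind of window of BAG3 and HSPE1, which says only that these letters are not in them.

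**Figure D1:**
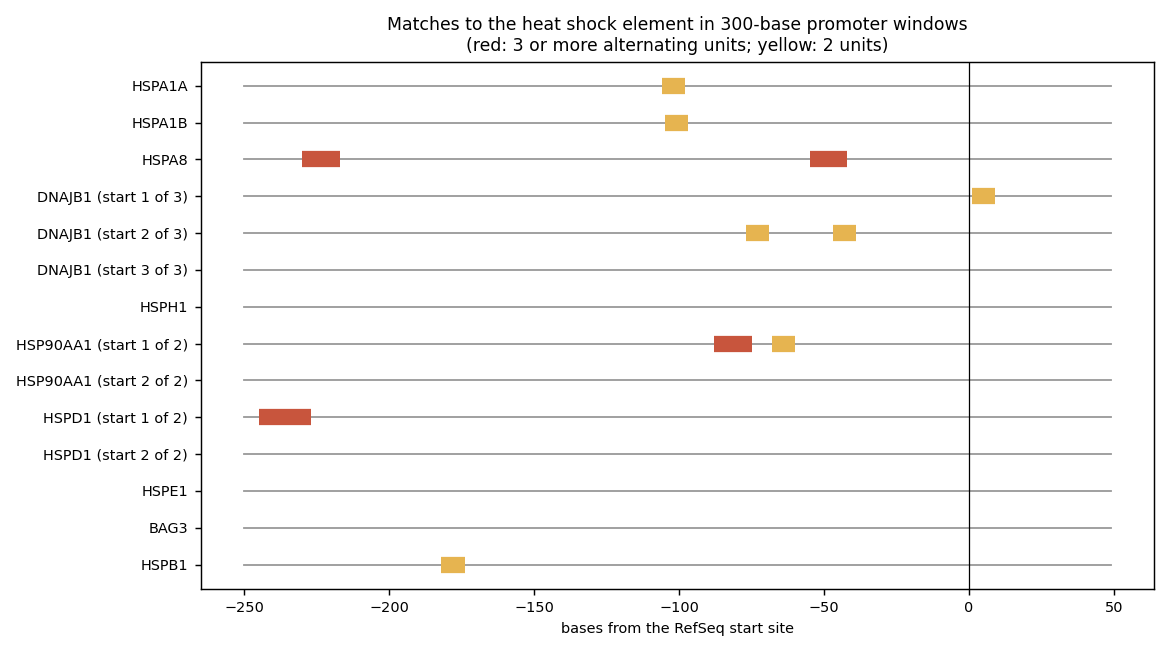
Positions of heat shock element matches in the 300-base RefSeq promoter windows of the 10 genes, in bases from the start site (vertical line); grey lines are the windows, red boxes matches of 3 or more units and yellow boxes matches of 2 units. Red boxes appear for HSPA8, HSP90AA1 and HSPD1 only, and the windows of HSPH1, HSPE1 and BAG3 and of 1 further start each of DNAJB1, HSP90AA1 and HSPD1 are empty.

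The deposited FPKM values (fragments on a transcript, scaled by its length and the mapped reads) imply 28083822 and 28586051 mapped reads for the control libraries at 24 h and 48 h, 30701282 for SAF-A 24 h and 1216740 for SAF-A 48 h. The library labelled SAF-A 48 h thus stands apart in depth: 1 FPKM of a 2 kb transcript equals about 2.19 reads there and 50.5 to 55.3 elsewhere, and every statement about 48 h of SAF-A siRNA rests on it. The targeted gene HNRNPU stood at 91.2 and 84.6 FPKM in the control libraries and at 10.4 and 9.24 FPKM in the SAF-A libraries, 11.4% and 10.9% of control. Genes under 300 nt held 50.9% to 63.8% of all FPKM, so every FPKM also depends on them. Of 8 pigment epithelium markers, MITF (4.23 to 9.01 FPKM) and OTX2 (2.16 to 3.77 FPKM) exceeded 1 FPKM in every library and RPE65 was listed at 0 in all, so the line lacked defining markers of the mature tissue. Genes of cultured epithelial cells shifted in the SAF-A 48 h library: against control 48 h the keratin genes KRT18 (229.1 and 23.3 FPKM), KRT8 (63.9 and 15.4) and KRT7 (8.92 and 3.84) were lower and the vimentin gene VIM (1586 and 3312) higher, while CDH2 (51.1 and 81.5) was within 2-fold and CDH1 was listed at 0 in all libraries. The 9 markers of other cell types summed to 12.2 to 13.98 FPKM in each library: CD68 stood at 7.001 to 11.3 FPKM, PDGFRB at 1.00 to 2.15 and 4.62 in SAF-A 48 h, COL1A1 at 0.523 to 0.960 and 2.01 in SAF-A 48 h, and the other 6 at or under 0.35 FPKM. The part of these shifts in the 48 h results was not tested.

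At 24 h the chaperone genes were nearly level between the siRNAs, and at 48 h most were lower in the SAF-A library. A gene was called higher or lower when its difference in log2(FPKM + 1) was at least 2-fold, among 11631 genes whose mean FPKM was 1 or more, and all 10 chaperone genes were among them. At 24 h, 0 of 10 were called, where 3.08% of all tested genes were. Among tested genes of at least 300 nt, to which all 10 belong, the share was only 0.633%. At 48 h, 7 of 10 were lower, where 20.1% of all tested genes were, and 2 of 10 were higher, where 14.2% were. The 7 include both HSPA1A and HSPA1B, which share much of their sequence, so these are not separate observations. Counting any size of difference with deposited 95% bounds apart, 8 of 10 were lower, where 26.6% of all tested genes were, and 2 higher, where 21.9% were. The median log2 difference of the 10 was -0.10 at 24 h and -1.16 at 48 h, beside medians of -0.06 and -0.12 over all tested genes. In a bulk sample a lower level can mean fewer cells of a type or less RNA per cell, which cannot be told apart. Scaling to the total over genes of at least 300 nt (as TPM, in which every library has the same total) moved the median of all genes at 48 h to -0.35 and the split of all genes to 29.1% lower and 10.7% higher; 7 of the 10 were then lower and 1 higher.

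**Figure D2:**
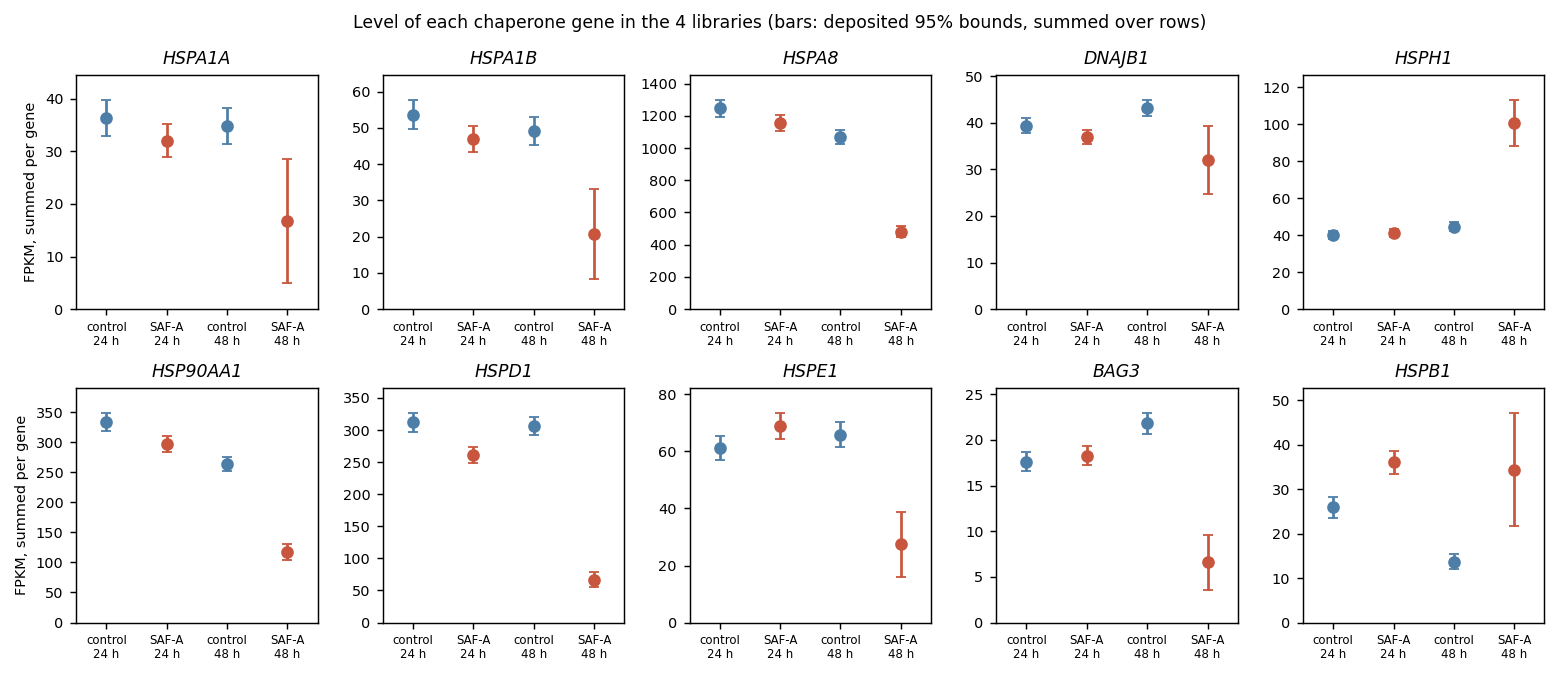
FPKM of each chaperone gene (vertical axes, starting at 0, a scale for each gene) in the 4 libraries, control siRNA in blue and SAF-A siRNA in red; bars are the deposited 95% bounds, summed over a gene's rows, and cover estimation within a library only. In 7 of the panels the SAF-A 48 h point lies at less than 50% of the control 48 h point, and in those of HSPH1 and HSPB1 it lies above it.

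HSPA8 encodes HSC70, the HSP70 present in unstressed cells, and was the most abundant of the 10. Its gene lies at chr11:122928200-122933043 on the minus strand. It stood at 1247.5 FPKM in control 24 h, 1153.6 in SAF-A 24 h, 1069.3 in control 48 h and 482.2 in SAF-A 48 h. The first 3 values were close and the last stood far below, with 95% bounds of 448.8 to 516.4 against 1024.4 to 1114.1 in control 48 h. The log2 difference was -0.11 at 24 h, with overlapping bounds, and -1.15 at 48 h, with extremes of -1.31 and -0.99 when the bounds are set against each other. Among genes of at least 300 nt HSPA8 ranked 18th, 25th and 23rd in the first 3 libraries and 110th in SAF-A 48 h, where about 1326 reads lay behind its value. Of the 10 genes' summed FPKM it held 53.3% to 57.9% in every library. Of the windows of 50 bases (the read length) in its transcripts, 21.3% to 23.4% also occur elsewhere in GRCh37.

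HSPA1A and HSPA1B encode the inducible HSP70, from neighbouring genes at chr6:31783291-31785719 and chr6:31795512-31798031 on the plus strand. Of the 2380 windows of 50 bases (the read length) in the HSPA1A transcript, 1766 (74.2%) also occur elsewhere in GRCh37, and all 1766 occur in HSPA1B. Reads therefore often cannot say which of the pair they came from, and their sum is the firmer value. At 24 h the sum was 90.1 FPKM with control and 79.0 with SAF-A siRNA, and at 48 h it was 83.9 and 37.6 FPKM. The log2 difference of the sum between siRNAs was -0.19 at 24 h and -1.14 at 48 h, and only the 48 h bounds (76.7 to 91.1 and 13.4 to 61.7 FPKM) did not overlap. HSPA1A alone stood at 36.4, 32.1, 34.8 and 16.7 FPKM and HSPA1B alone at 53.7, 47.0, 49.04 and 20.9 FPKM, here and in all series of 4 values in the order control then SAF-A at 24 h, control then SAF-A at 48 h. In SAF-A 48 h these rested on about 45 and 59 reads, and the 2-fold difference of HSPA1A (log2 -1.02) had extremes of -2.72 and -0.14.

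Each of the pair has 5 rows in the tables, 1 on chromosome 6 and 4 on alternative haplotype sequences of the same region. The rows of HSPA1A held 19.1% to 20.7% of its sum each and those of HSPA1B 18.4% to 21.5%. From the chromosome 6 rows alone the pair summed to 17.5, 15.3, 16.3 and 7.02 FPKM. The HSPA1A difference at 48 h was then -0.90, short of 2-fold, since adding 1 to a smaller FPKM shrinks a difference, and that of HSPA1B was -1.11. The order of the libraries was the same on 1 row as on 5, while the level given for this pair depends on whether the haplotype rows are added.

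**Figure D3:**
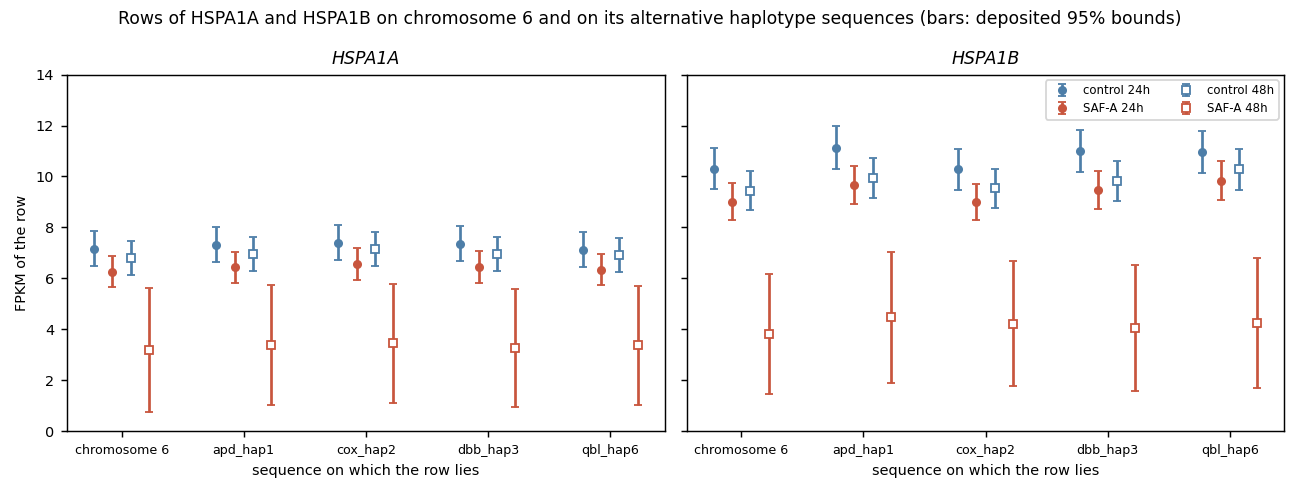
FPKM of each row of HSPA1A (left) and HSPA1B (right) by the sequence on which it lies, with deposited 95% bounds; filled points are 24 h, open squares 48 h, blue control and red SAF-A siRNA. Within a library the 5 rows stand at nearly the same height, and the SAF-A 48 h points (3.19 to 4.48 FPKM) lie below all others.

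HSPH1 encodes HSP110, the exchange factor that makes HSP70 release its bound nucleotide, and it moved opposite to HSPA8 at 48 h. The gene lies at chr13:31709111-31736525 on the minus strand. It stood at 40.2, 41.0, 44.5 and 100.5 FPKM. The bounds of the first 3 values overlapped, and the last was 226% of its control, on about 629 reads. The log2 difference was 0.03 at 24 h and 1.16 at 48 h (extremes 0.90 and 1.40), and under scaling to genes of at least 300 nt it was 0.93, short of 2-fold. The transcript NM_006644 carried 91.1% to 97.1% of the sum, and by itself stood at 43.2 FPKM in control 48 h and 91.5 in SAF-A 48 h. NM_001286504, which begins at the outer start site, stood at 2.74, 1.33, 1.31 and 8.99 FPKM. Only 0.207% to 0.223% of HSPH1's 50-base windows have an exact copy elsewhere. The ratio of HSPA8 to HSPH1 was 31.0, 28.1 and 24.0 in the first 3 libraries and 4.80 in SAF-A 48 h.

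DNAJB1 encodes the main heat-inducible HSP40, which brings unfolded proteins to HSP70, and passed 2-fold in none of the 4 comparisons. It lies at chr19:14625582-14629201 on the minus strand and stood at 39.4, 37.002, 43.2 and 32.0 FPKM. The SAF-A 48 h value was the lowest, but its bounds of 24.7 to 39.3 FPKM, from about 79 reads, reach those of both 24 h libraries. The log2 difference between siRNAs was -0.09 at 24 h and -0.42 at 48 h, where the bounds of the pair did not overlap.

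BAG3 encodes a cochaperone that binds HSP70 and steers bound proteins to autophagy. It lies at chr10:121410882-121437329 on the plus strand and stood at 17.6, 18.3, 21.8 and 6.60 FPKM. The SAF-A 48 h value, 30.3% of its control, was the lowest and rested on about 19 reads (bounds 3.57 to 9.64 FPKM). The log2 difference was 0.05 at 24 h and -1.58 at 48 h (extremes -2.39 and -1.03). None of the 2520 windows of 50 bases in its transcript has an exact copy elsewhere in GRCh37, beside 4.30% for DNAJB1 and 14.3% for HSPB1.

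HSP90AA1 encodes the inducible cytosolic HSP90, which completes the folding of kinases and hormone receptors. It lies at chr14:102547075-102606086 on the minus strand and stood at 333.8, 296.9, 263.2 and 116.9 FPKM. The bounds of all 4 values were apart (319.1 to 348.6, 283.8 to 310.0, 251.5 to 274.9 and 103.2 to 130.8 FPKM), with SAF-A 48 h far below the others. The log2 difference was -0.17 at 24 h and -1.16 at 48 h (extremes -1.40 and -0.94). NM_005348, the accession with the inner start, carried 98.6% to 99.02% of the sum in every library. Of the gene's 50-base windows, 19.8% to 23.6% occur elsewhere in GRCh37. The constitutive HSP90AB1 stood at 316.6, 280.5, 348.4 and 99.4 FPKM, so both cytosolic HSP90 genes were lower in SAF-A 48 h, and their ratio, HSP90AA1 over HSP90AB1, was 1.05, 1.06, 0.756 and 1.18.

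HSPD1 and HSPE1 encode the mitochondrial HSP60 chamber and its HSP10 lid, and are read outward from a shared region of chromosome 2. HSPD1 (chr2:198351308-198364998, minus strand) stood at 311.8, 261.2, 306.4 and 66.6 FPKM. The SAF-A 48 h value, 21.7% of its control and resting on about 170 reads, gave the largest difference of the 10 genes at 48 h, a log2 value of -2.18 (extremes -2.50 and -1.89). At 24 h the difference was -0.25 and the bounds were also apart. HSPE1 (chr2:198364721-198368187, plus strand) stood at 61.2, 69.0, 65.9 and 27.4 FPKM, the last from about 25 reads. Its log2 difference was 0.17 at 24 h, with overlapping bounds, and -1.23 at 48 h (extremes -2.06 and -0.65). The ratio of HSPD1 to HSPE1 was 5.10, 3.79, 4.65 and 2.43, lower in each SAF-A library than in its control. No bounds were set on the ratio, and those of HSPE1 in SAF-A 48 h were wide (16.1 to 38.8 FPKM). The genes share 115 exon bases on opposite strands, and whether reads were counted by strand is not given in the sources used here. A further gene on the strand of HSPE1, HSPE1-MOB4, shares 608 of HSPE1's 953 exon bases and was given almost no FPKM in any library. The HSPE1 value therefore depends on how shared reads were divided. Of HSPD1's 50-base windows, 39.9% to 40.0% occur elsewhere in the genome, as do 20.9% of HSPE1's.

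The 24 h difference of HSPD1 lay mostly in 1 of its accessions. NM_002156, which begins at the inner start, stood at 34.6, 4.93, 23.8 and 0.0642 FPKM, or 11.1%, 1.89%, 7.75% and 0.0963% of the gene. NM_199440, which begins at the outer start inside the region shared with HSPE1, stood at 277.2, 256.3, 282.7 and 66.6 FPKM. At 24 h the loss of 50.6 FPKM was made up of 29.7 from NM_002156 and 20.9 from NM_199440, and on NM_199440 alone the log2 difference was -0.11. The accessions differ by only 135 and 115 exon bases of 2321 and 2301, so their split rests on few positions. NM_002156 was lower in each SAF-A library than in its control, and at 24 h the lower bound with control siRNA, 32.2 FPKM, was far above the upper bound with SAF-A siRNA, 5.66 FPKM.

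HSPB1 encodes HSP27, a small heat shock protein that holds unfolding proteins and binds actin filaments. It lies at chr7:75931875-75933614 on the plus strand and stood at 25.9, 36.0, 13.7 and 34.4 FPKM. Both SAF-A values were above both control values, although the bounds of SAF-A 48 h (21.6 to 47.2 FPKM, about 29 reads) overlap those of control 24 h. The log2 difference was 0.46 at 24 h (extremes 0.24 and 0.69) and 1.27 at 48 h (extremes 0.47 and 1.89). HSPB1 was the 1 member above control at 24 h with bounds apart, as were 8.98% of all tested genes, and 2 members, HSP90AA1 and HSPD1, were below with bounds apart, as were 17.5%.

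**Figure D4:**
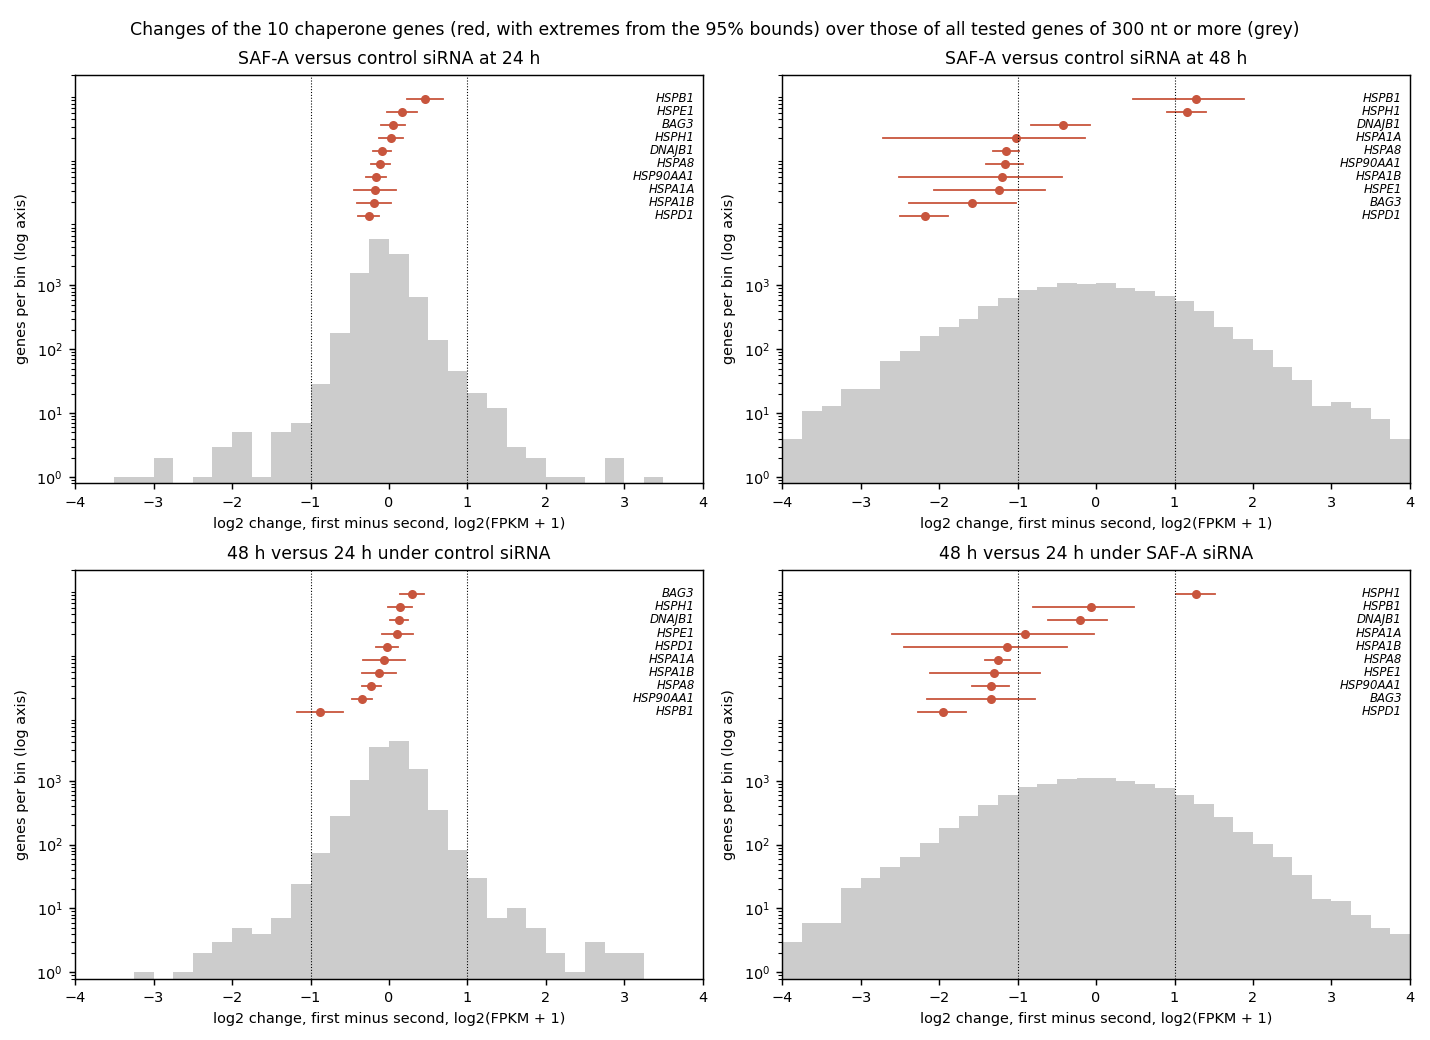
Differences in log2(FPKM + 1) of the 10 chaperone genes (red points, with extremes from the 95% bounds as lines) above the distribution of all tested genes of at least 300 nt (grey, genes per bin of 0.25, log axis; the height of the red points has no scale). At 24 h all red points lie between the dotted 2-fold lines, and at 48 h 7 lie left of them and 2 right.

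The same libraries compared over time show the controls nearly level. From 24 h to 48 h under control siRNA 0 of 10 passed 2-fold, where 3.15% of all tested genes and 0.986% of those of at least 300 nt did. The median log2 difference was -0.04 beside 0.03 for all genes. HSPB1 was nearest, at -0.87 (extremes -1.17 and -0.59), and HSP90AA1 (-0.34), HSPA8 (-0.22), DNAJB1 (0.13) and BAG3 (0.29) also had bounds apart. That made 3 lower, where 12.8% of all tested genes were, and 2 higher, where 18.3% were. The HSPB1 difference at 48 h between siRNAs thus includes a control level that was itself 52.8% of the 24 h control. Under SAF-A siRNA 6 of 10 were lower at 48 h than at 24 h, where 17.8% of all tested genes were, and 1 of 10, HSPH1 at 1.27, was higher, where 15.1% were. HSPD1 (-1.96), HSP90AA1 (-1.34), BAG3 (-1.34), HSPE1 (-1.30), HSPA8 (-1.26) and HSPA1B (-1.13) were lower, HSPA1A (-0.90) and DNAJB1 (-0.20) did not pass 2-fold, and HSPB1 was nearly level at -0.07. With bounds apart at any size, 7 were lower, where 23.8% of all tested genes were, and 1 was higher, where 23.5% were. This comparison shares the SAF-A 48 h library with the siRNA comparison at 48 h, and the median over the 10 was -1.20 beside -0.02 for all genes. TPM over all rows turned the split of all genes under SAF-A siRNA to 13.95% lower and 20.6% higher, with 5 of the 10 lower and 1 higher; TPM over genes of at least 300 nt gave 25.6% and 11.9%, with 7 lower and 1 higher.

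As a whole the 10 genes held 0.575%, 0.511%, 0.500% and 0.201% of the FPKM in genes of at least 300 nt. Their profiles over the 4 libraries, each centred on its own mean log2(FPKM + 1), were compared by Euclidean distance with the median profile of the 10. HSPE1 (0.137), HSPA8 (0.150) and HSPA1B (0.157) lay nearest to it, and HSPB1 (1.75) and HSPH1 (2.11) farthest. Among 7700 other genes the nearest were ZNF252P (0.058), CDCA4 (0.060) and CBX3 (0.062), with CBX3 at 123.8, 126.4, 118.2 and 54.8 FPKM. The likeness is over 4 libraries, 1 of which, SAF-A 48 h, differs most from the others in these profiles.

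Other proteostasis genes were read from 7 lists of 91 genes, 86 of them tested. None of the 86 passed 2-fold between siRNAs at 24 h or over time under control siRNA, where 0.633% and 0.986% of tested genes of at least 300 nt did. Between siRNAs at 48 h 26 (30.2%) did, where 34.4% of all tested genes did. HSF1 itself stood at 16.4, 14.7, 18.4 and 26.9 FPKM (log2 difference 0.53 at 48 h) and HSF2 at 9.12, 9.28, 10.6 and 6.92 FPKM (-0.55), neither 2-fold. HSPA6, an HSP70 that human cells make almost only under stress, stood at 0.145 FPKM or less in every library and was listed at 0 in SAF-A 48 h. In the list of other heat shock genes 8 of 19 tested were lower at 48 h, where 20.1% of all tested genes were, and 1 higher, where 14.2% were. The median was -0.35. HSP90AB1 (-1.80), the HSP90 cochaperone gene CHORDC1 (-2.29, 13.5 against 1.97 FPKM on about 8 reads) and CACYBP (-1.77) were lower, and ZFAND2A, a heat- and arsenite-inducible proteasome adaptor gene, was higher (17.6 against 66.0 FPKM, 1.85).

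In the HSF list, 0 of 3 tested genes (HSF1, HSF2 and HSBP1) passed 2-fold at 48 h, where 34.4% of all tested genes did. Its median was 0.53. HSBP1 stood at 52.6, 59.0, 67.3 and 128.9 FPKM (log2 difference 0.93 at 48 h). Over time under SAF-A siRNA HSBP1 was higher by 1.11, with bounds apart. The lists not yet described had medians between -0.09 and 0.35 at 48 h. The counts below stand beside 14.2% of all tested genes higher and 20.1% lower at 48 h. Under TPM over genes of at least 300 nt these shares were 10.7% and 29.1%. Of 16 tested cochaperone genes 4 were higher and 3 lower at 48 h, with a median of 0.30; TPM over genes of at least 300 nt gave 1 higher and 4 lower. DNAJB2 (9.24 against 48.0 FPKM, 2.26), DNAJC7 (1.21) and PPP5C (1.18) were higher. BAG4 (5.76 against 0.594 FPKM on about 3 reads, -2.08), BAG5 (15.1 against 3.36 FPKM, -1.88) and FKBP5 (-1.03) were lower. Of 14 chaperonin and prefoldin genes, which fold actin and tubulin, 1 was higher (PFDN5, 245.0 against 696.1 FPKM, 1.5025) and 1 lower (PFDN1, -1.15), with a median of 0.08. Of 18 chaperone and stress genes of the endoplasmic reticulum 4 were higher, among them PDIA6 (1.31), CALR (1.25) and DNAJB11 (1.19), and 1 lower (PDIA3, 58.9 against 8.94 FPKM, -2.59), with a median of 0.35. Of 11 mitochondrial chaperone and protease genes 1 was higher (YME1L1, 1.06) and 1 lower (GRPEL1, an exchange factor of mitochondrial HSP70, -1.496), with a median of 0.10. Of 5 other HSP70 genes 1 was lower (HSPA12A, 1.91 against 0.447 FPKM on about 3 reads), with a median of -0.09. Under TPM over genes of at least 300 nt the medians were 0.09 for the cochaperones, -0.15 for the chaperonin and prefoldin genes, 0.13 for the endoplasmic reticulum list (2 higher and 1 lower), -0.13 for the mitochondrial list (0 higher and 2 lower) and -0.33 for the other HSP70 genes, so the signs of the chaperonin and mitochondrial medians turned.

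**Figure D5:**
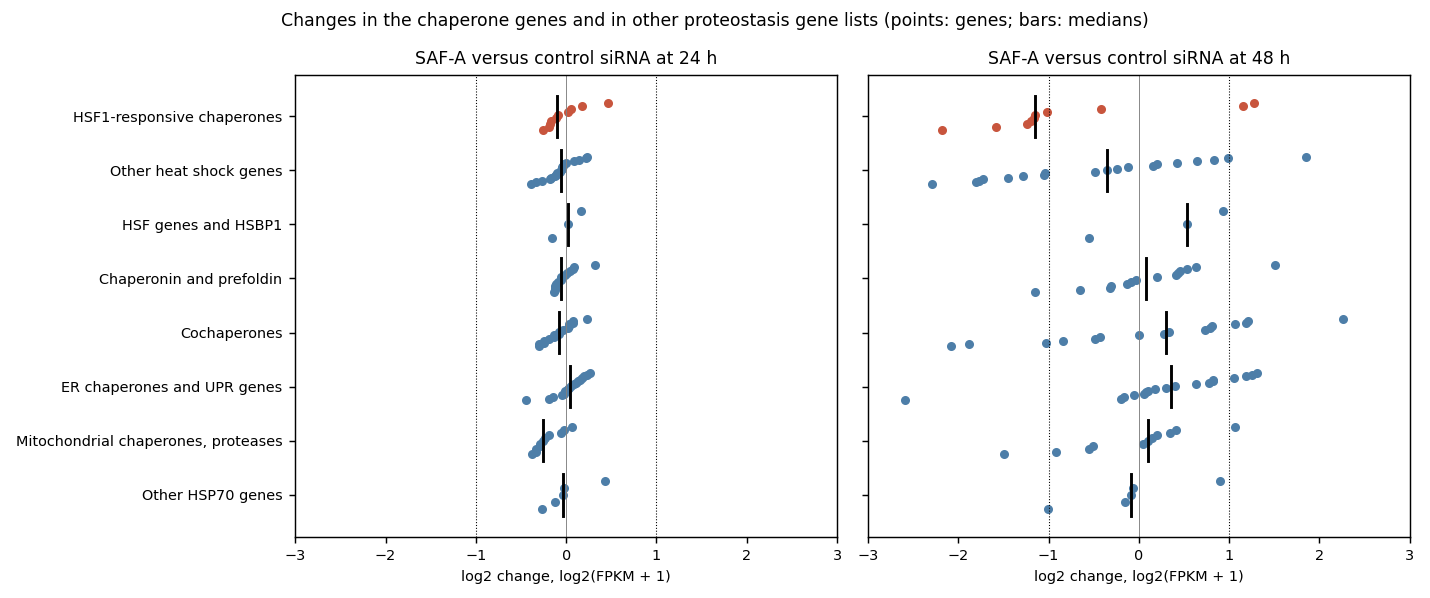
Difference in log2(FPKM + 1) between SAF-A and control siRNA at 24 h (left) and 48 h (right) for each tested gene of the chaperone set (red) and of 7 other lists (blue), with medians as black bars and 2-fold as dotted lines. At 24 h all points lie inside the dotted lines, and at 48 h the red median stands at -1.16 and the medians of the other lists between -0.35 and 0.53.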

How the data were processed

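The deposited tables give FPKM with 95% bounds and a status for each RefSeq accession, per the file headers. Per the submitters' processing notes the authors used TopHat2 2.0.10, Bowtie2 2.1.0, Cufflinks 2.2.1 and Cuffdiff on build hg19. How reads that map to several places were counted, and whether by strand, is not given in the sources used here. Rows of 1 symbol were added up, bounds included (47338 rows, 97.1% matched through RefSeq names), including 2356 rows on haplotype sequences, with Python 3.11.15, numpy 2.4.6 and pandas 2.3.3. Mapped reads were the deposited coverage of the transcript files divided by FPKM, a value of another unit. Estimated reads assume fragments of 200 ± 80 nt, and bounds cover estimation error within a library only. Shares of genes with bounds apart were taken over all tested genes and were not matched for level. Differences are in log2(FPKM + 1) among 11631 genes whose mean FPKM was 1 or more. The script was tested on simulated data. All members are named, and of each other list up to 3 genes a direction with the largest differences past 2-fold and bounds apart; HSF1, HSF2 and HSPA6 were named after their values were seen. The 3 most similar profiles were sought among genes of at least 300 nt whose mean FPKM was 5 or more. The members and lists were chosen with earlier results of these data known. The alternatives were a pseudocount of 0.1, other filters on low FPKM or length, TPM, centring, a 1.5-fold threshold, bounds that do not overlap and the top row of a gene alone. For the medians, HSPA1A and HSPA1B were also added and counted as 1 gene. Leaving out haplotype rows, and the search for repeated 50-base windows, were added after seeing the data. Protein identity between members was planned and is not analysed here.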

Additional observations from a re-analysis of the deposited data

Results flagged for a closer look

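BAG3, the cochaperone of HSP70, moved in opposite directions with time under the siRNAs. From 24 h to 48 h it went from 17.6 to 21.8 FPKM under control siRNA, a log2 difference of 0.29 with 95% bounds apart, and from 18.3 to 6.60 FPKM under SAF-A siRNA, a log2 difference of -1.34 with bounds apart. The SAF-A difference minus the control difference was -1.64. BAG3 was not alone in this: the same contrast was larger for HSPD1, at -1.93. HSPE1 (0.11 under control and -1.30 under SAF-A siRNA) and DNAJB1 (0.13 and -0.20) also changed sign, each with bounds overlapping under 1 of the siRNAs. All these contrasts share the SAF-A 48 h library. With 1 library per group they were not tested, and the SAF-A 48 h value of BAG3 rests on about 19 reads.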

How the results depend on the processing

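No paired analysis was possible because each group has 1 library and the labels give no replicate numbers. The 48 h results of SAF-A siRNA rest on the 1 shallow library, and no setting replaces it. Of the counts and medians that answer a comparison, 112 values under alternatives stayed near the main ones and 4 did not. Near means a count within 1.5-fold of the main one, or a log2 value inside the extremes from the bounds (for a median, the medians of those extremes). All 10 members pass the filters on low FPKM and length, so their own values could not move under these. The tally is therefore no measure of how firm the results are. TPM over all rows moved the median of the 10 genes at 24 h from -0.10 to -0.28, turned HSPH1 (0.03 to -0.15) and BAG3 (0.05 to -0.12) below 0 there, with 9 of 10 then negative, and moved the median over time under control siRNA from -0.04 to 0.03; none passed 2-fold. A 1.5-fold threshold raised the genes of other lists from 26 to 42 at 48 h and from 27 to 44 over time under SAF-A siRNA, and called 1 of 10, HSPB1, over time under control siRNA. Of values for single genes and lists, 568 stayed near, 30 moved and 2 turned.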

Other observations

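The endoplasmic reticulum list holds chaperones of the secretory pathway and genes of its stress response. It was lower at 48 h than at 24 h under control siRNA in 18 of 18 genes, where 43.6% of all tested genes were lower. In 11 of the 18 the bounds were apart, where 12.8% of all tested genes were lower with bounds apart. That share was not matched for level, and bounds are narrower for their value in genes with more reads. The median log2 difference was -0.27 beside 0.03 for all tested genes, and under TPM over all rows 14 of 18 were lower with a median of -0.20. None passed 2-fold. Under SAF-A siRNA 9 were lower and 9 higher, with a median of -0.03, where 51% of all tested genes were lower. TPM over all rows gave 6 lower and 12 higher (median 0.20), and TPM over genes of at least 300 nt gave 11 lower and 7 higher (median -0.24).

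The mitochondrial chaperone and protease list was lower with SAF-A than with control siRNA at 24 h in 10 of 11 genes, where 62.9% of all tested genes were lower. In 7 of them the bounds were apart, where 17.5% of all tested genes were lower with bounds apart, a share not matched for level. The median was -0.26 beside -0.06 for all genes. Centred on the median of genes whose mean FPKM was 5 or more, 8 of 11 were lower with a median of -0.20. HSPD1, of the same compartment, had -0.25 at 24 h, and HSPE1 had 0.17. Under TPM over all rows HSPD1 had -0.44 and HSPE1 -0.01. At 48 h 7 of the 11 were higher and 4 lower, where 54.1% of all tested genes were lower. This split turned to 3 higher and 8 lower under TPM over genes of at least 300 nt.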
